A study of Homo sapiens with 30 samples.

Results

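The genes described here are 54 human genes that copy DNA in S phase or control the step from G1 into it. They were chosen by symbol, through the platform's gene symbol or an older alias of it (CDC45L for CDC45, ORC1L to ORC6L for the ORC genes), and a gene was read where a probe had a detection p-value under 0.01 on 3 or more arrays. By that rule 52 of the 54 genes were read, of 12667 genes in the whole series. GINS1, a subunit of the GINS complex, passed on 2 arrays and CCNE2, a cyclin E, on 0 arrays, so neither was analysed. In the first experiment 51 members were tested and in the second 52, because E2F1 passed only in the second.

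RNA was measured in U2OS, a human osteosarcoma cell line, on 30 single-colour Illumina bead arrays in 10 groups of 3. Every group carried a retroviral short hairpin RNA (shRNA), in the controls from the vector pSIREN neg. In the first experiment the shRNAs were pSIREN neg, pSIREN NFBD1sh b (hairpin b), a p53 shRNA, or hairpin b and the p53 shRNA together, and each was given 0 Gy or 5 Gy from a 137Cs source 2 days after infection. In the second experiment pSIREN NFBD1a (the second hairpin) was set against its own pSIREN neg control, both without irradiation. RNA was taken 4 h after irradiation or mock treatment. The labels name no selected clone, so a group is a population of infected cells that may differ in how much shRNA each cell carries. They also do not say whether replicates came from separate cultures, so p-values measure the spread between these samples, which may be technical.

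DNA is copied from origins that the origin recognition complex (ORC1 to ORC6) marks. CDC6 and CDT1 load the MCM2 to MCM7 ring there in G1, and CDC45 and the GINS complex turn it into an active helicase in S phase. DNA polymerases, held by the sliding clamp PCNA that clamp loaders such as replication factor C open and close, then copy both strands, while FEN1 and LIG1 join the pieces of the lagging strand. Many of these genes are transcribed around the G1/S transition by E2F transcription factors, and p53 restrains that transition through CDKN1A (p21). NFBD1, the product of MDC1, binds damaged chromatin and gathers checkpoint and repair proteins there.

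The hairpins and the irradiation were visible in the genes that report on them. MDC1 had log2 intensities of 8.21 to 9.43 on arrays without hairpin b and 7.04 to 7.92 on arrays with it, and of 8.56 to 8.79 with the control and 6.19 to 6.33 with the second hairpin. CDKN1A, a p53 target, lay at 11.34 to 13.51 without and 10.36 to 11.98 with the p53 shRNA, and was higher at 5 Gy in 12 of 12 pairs of arrays with the same number. The p53 transcript was not analysed here. Arrays detected 34.1% to 40.3% of 48802 probes and correlated with the others of their group at 0.982 to 0.997. Of 10 mesenchymal markers, 8 were detected on every array of the first experiment and 9 on every array of the second. Of 8 epithelial markers 5 passed the detection filter in the first experiment and 4 in the second. EPCAM, KRT8 and KRT18 were detected on every array, while KRT19, ESRP1 and GRHL2 passed in neither experiment. Of 6 neural markers 4 passed in the first and 3 in the second, with NEFL and STMN2 on every array and NEFM and INA in neither. Of 6 blood cell markers 4 passed the detection filter in the first experiment, with LYZ on every array, and 3 in the second, with CD3D on every array, while PTPRC passed in neither.

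With the second NFBD1 hairpin, 17 of the 52 members tested fell and 1 rose. In that comparison 26.2% of all 11040 genes were past an adjusted p of 0.05 (limma, Benjamini-Hochberg), 12.6% lower and 13.6% higher, and 34.6% of the members. The median log2 change was -0.12 over the members and 0.01 over all genes tested, and 42 of the 52 members were below 0 (80.8%, against 48.6% of all genes). The arrays of both groups did not overlap for 28 members, and for 42% of all genes. In RNA of whole cultures, fewer cells in S phase and less of a transcript per cell cannot be told apart.

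The letters just before the start of transcription are shown for 5 of the members that fell, 4 with an E2F word and 1 without, because E2F words are known from promoters of G1/S genes that move together. The words searched, on both strands, were TTTCCCGC, TTTCGCGC, TTTGCCGC and TTTGGCGC, which can overlap one another, in a window of 300 bases that runs from 250 before to 50 after the start (RefSeq, GRCh38.p14). At least 1 word was in 21 of the 45 member promoters found in the table (46.7%) and in 908 of all 27305 promoters (3.33%). Among members that fell with the second hairpin it was in 7 of 15 (46.7%), and among those tested that did not fall in 13 of 29 (44.8%), so the share was nearly the same in both. The 120 bases before the start follow, 5′ to 3′ on the gene's strand, with matches in capitals.
MCM6 (chr2:135876444-135876563, minus strand): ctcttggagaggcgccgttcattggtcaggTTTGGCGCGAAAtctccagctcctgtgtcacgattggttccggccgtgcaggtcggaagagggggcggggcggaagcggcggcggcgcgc
LIG1 (chr19:48170345-48170464, minus strand): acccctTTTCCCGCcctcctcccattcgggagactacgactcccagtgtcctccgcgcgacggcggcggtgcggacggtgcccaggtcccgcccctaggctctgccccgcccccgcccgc
PCNA (chr20:5126623-5126742, minus strand): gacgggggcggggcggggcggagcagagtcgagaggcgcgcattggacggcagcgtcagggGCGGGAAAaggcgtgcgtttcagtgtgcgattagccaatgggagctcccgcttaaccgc
E2F2 (chr1:23531234-23531353, minus strand): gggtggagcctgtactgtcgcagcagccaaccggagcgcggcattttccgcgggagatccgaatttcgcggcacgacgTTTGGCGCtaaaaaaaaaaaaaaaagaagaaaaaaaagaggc
DUT (chr15:48330975-48331094, plus strand): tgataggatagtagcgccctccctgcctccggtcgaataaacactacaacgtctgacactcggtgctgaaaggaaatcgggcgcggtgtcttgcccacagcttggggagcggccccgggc
In MCM6 the capitals are a pair of overlapping words, in PCNA the reverse complement of TTTCCCGC, and in DUT, the member that fell most, no word is in the letters shown. A match is a description of the sequence and not a site of binding.

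In the MCM ring, with each gene read by its brightest probe, 3 of 6 subunits fell. MCM6 had log2 intensities of 11.21, 11.14 and 11.12 with the control and 10.71, 10.83 and 10.85 with the second hairpin, a change of -0.36 ± 0.07 (SE, adjusted p = 0.00514). MCM7 had 12.25, 12.21 and 12.16 with the control and 11.86, 11.95 and 11.84 with the hairpin, a change of -0.32 ± 0.07 (adjusted p = 0.00631). All 3 hairpin arrays lay below all 3 control arrays for both genes. MCM2 fell by 0.20 (adjusted p = 0.0447), and MCM3, MCM4 and MCM5 had changes of -0.09, -0.12 and -0.18 that were not called. A dimmer MCM4 probe changed by -0.29 (limma, adjusted p = 0.0279 over probes), and a dimmer MCM3 probe by -0.02. Among the factors that load or activate the ring, MCM10, which helps to start the helicase, had 8.43, 8.52 and 8.45 with the control and 8.17, 8.24 and 8.11 with the hairpin, a change of -0.29 ± 0.07 (adjusted p = 0.0119). The loaders CDC6 (-0.09) and CDT1 (-0.14) were not called.

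CDC45 and 2 of the 3 GINS subunits read also fell, with no overlap between the groups. CDC45 went from 11.37, 11.41 and 11.32 with the control to 10.98, 11.13 and 11.09 with the hairpin (-0.30 ± 0.07, adjusted p = 0.0111). GINS2 went from 11.05, 11.17 and 11.16 to 10.78, 10.87 and 10.75 (-0.32 ± 0.07, adjusted p = 0.00807). GINS4 fell by 0.28 (adjusted p = 0.026), and GINS3 changed by -0.19 (adjusted p = 0.0562). No ORC subunit was called, with changes from -0.12 for ORC1 to 0.10 for ORC6. Nor was any of the 9 polymerase and primase subunits, which lay between -0.17 for POLE2 and 0.03 for POLD1, or of the 3 subunits of RPA, the complex that coats single-stranded DNA, of which RPA1 was lowest at -0.20 (adjusted p = 0.0669). At an unadjusted p under 0.05 these were 0 of 6 ORC, 0 of 9 polymerase and 1 of 3 RPA subunits. Each gene is read here by its brightest probe, and a dimmer PRIM2 probe changed by -0.35 (limma, adjusted p = 0.0493 over probes).

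Of the 6 clamp loader genes, 2 fell. RFC4 went from 10.57, 10.52 and 10.49 with the control to 10.22, 10.20 and 10.24 with the hairpin (-0.31 ± 0.06, adjusted p = 0.00624), and RFC2 from 8.79, 8.87 and 8.81 to 8.46, 8.62 and 8.48 (-0.30 ± 0.07, adjusted p = 0.0115). The other replication factor C subunits moved less, and RFC5 changed by -0.02 with a 95% interval of -0.17 to 0.13. LIG1, the ligase that seals lagging-strand pieces, went from 7.74, 7.63 and 7.74 to 7.24, 7.34 and 7.42 (-0.37 ± 0.07, adjusted p = 0.00538). The clamp PCNA went from 10.43, 10.35 and 10.48 to 10.19, 10.16 and 10.24 (-0.22 ± 0.07, adjusted p = 0.036). FEN1, the flap endonuclease of the lagging strand, changed by -0.09 and was not called. CHAF1B, a subunit of the histone chaperone CAF-1, fell by 0.27 (adjusted p = 0.0248), and CHAF1A, its partner, had -0.19.

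Among the enzymes that make DNA precursors, 3 of 5 fell. DUT, which removes dUTP, had 8.40, 8.26 and 8.41 with the control and 7.68, 7.80 and 7.70 with the hairpin, a fall of 1.54-fold (log2 change -0.63 ± 0.07, adjusted p = 0.000306). Another bright DUT probe had a change of -0.62, while a dimmer one changed by -0.14 and was not called. TK1, thymidine kinase, went from 10.95, 11.06 and 11.13 to 10.74, 10.73 and 10.78 (-0.30 ± 0.07, adjusted p = 0.0122). RRM1, the large subunit of ribonucleotide reductase, fell by 0.21 (adjusted p = 0.0404), while RRM2, the small subunit, had -0.07 and the thymidylate synthase gene TYMS 0.15, neither called. Of the G1/S regulators, E2F2 went from 10.10, 10.08 and 10.16 to 9.71, 9.60 and 9.74, a fall of 1.35-fold (-0.43 ± 0.07, adjusted p = 0.00175), and E2F8, a repressor of the same family, fell by 0.25 (adjusted p = 0.0464). E2F1 was the member that rose, from 4.94, 4.79 and 4.76 to 5.14, 5.13 and 5.09 (0.29 ± 0.07, adjusted p = 0.0146) at low intensities. CCNE1 (0.08) and CDC25A (0.05) were not called.

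Over the 7 alternatives other than leaving out arrays, 13 to 22 members were called, against 18 in the main run. Members gained in this way are not listed here. The calls of CDC45, DUT, E2F2, GINS2, LIG1, MCM10, MCM6, MCM7, RFC2, RFC4 and TK1 held under every alternative run. MCM2 and RRM1 lost theirs without any 1 of the 6 arrays (adjusted p up to 0.122 and 0.12), PCNA without any array but control replicate 2 (up to 0.119) and E2F8 without any but hairpin replicate 3 (up to 0.149); GINS4 lost it without control replicate 2 or 3 or hairpin replicate 1 or 3 (up to 0.0928), CHAF1B without replicate 1 or 3 of either group (up to 0.0916) and E2F1 without control replicate 2 or 3 or hairpin replicate 1 (up to 0.0567). With the authors' processed values the dim E2F1 and E2F8 changed by 0.09 and -0.08 and were not called (adjusted p = 0.138 and 0.197), and E2F8 was also lost with no background correction (-0.17, adjusted p = 0.0715), with no detection filter (0.0724) and when both experiments were normalized together (0.0646).

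**Figure D1:**
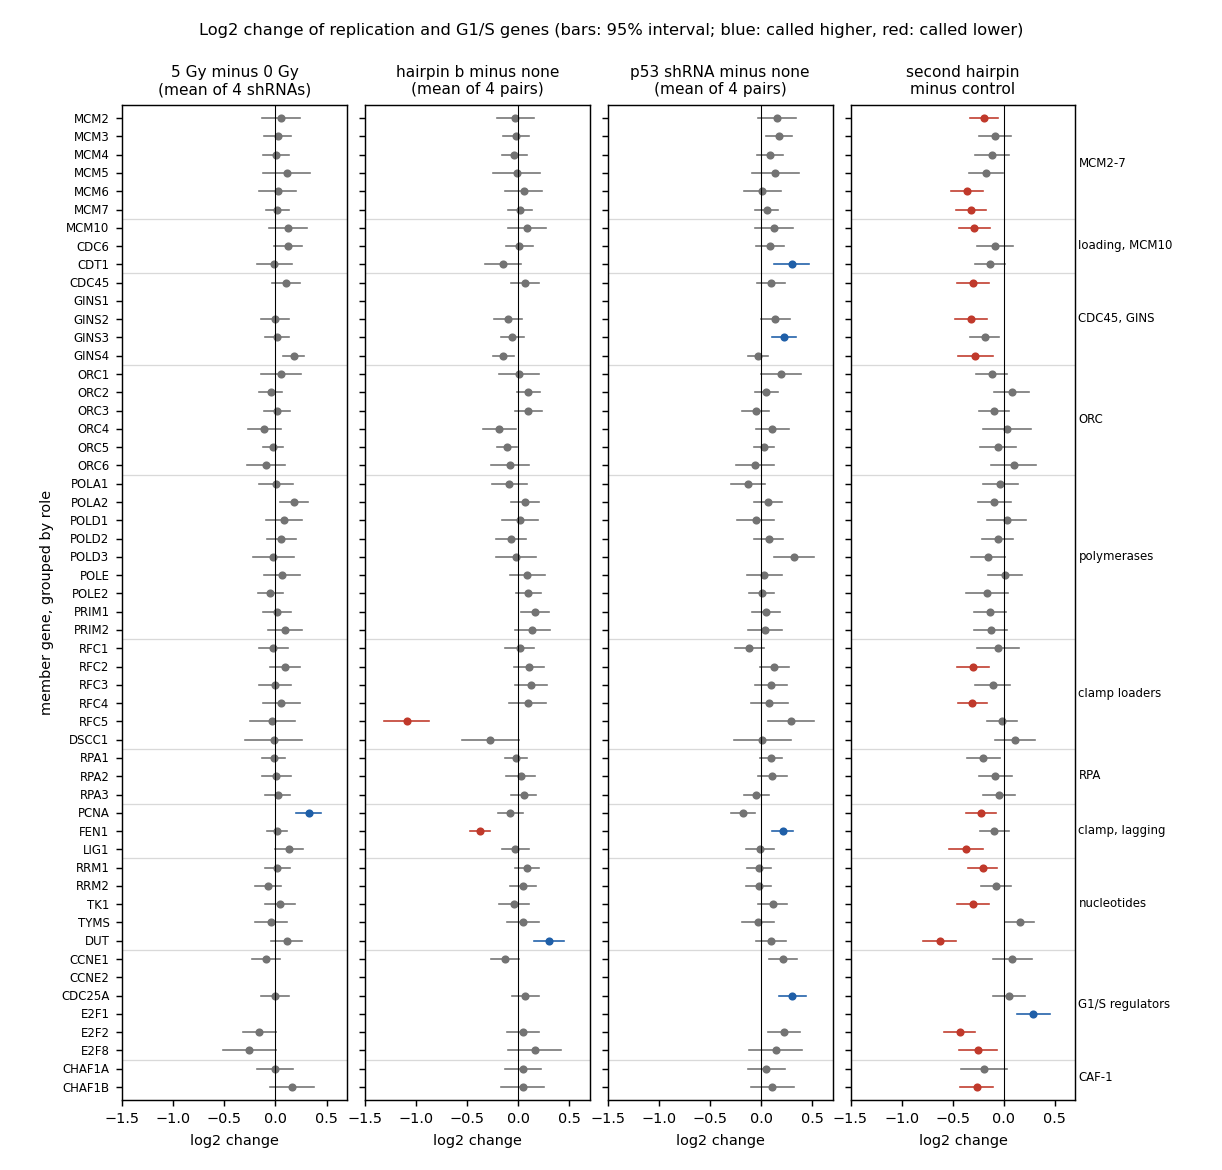
The log2 change of each member (points) with its 95% interval (bars) is drawn by role for irradiation averaged over 4 shRNAs, hairpin b and the p53 shRNA averaged over 4 comparisons, and the second hairpin. Blue points are called higher and red points lower; the second hairpin has 17 red points and the irradiation column 1 blue point, PCNA.

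Other gene lists and cell type markers moved in the same comparison. Of 48 other replication and G1/S genes tested, 18 fell and 3 rose, with a median of -0.17; DCK, deoxycytidine kinase, changed by -1.40, SKP2, a ubiquitin ligase subunit for p27, by -0.73 and CCND1, cyclin D1, by -0.71, while RRM2B, a p53-induced subunit of ribonucleotide reductase, changed by 0.85. Of 30 G2/M and mitosis genes 23 fell, with a median of -0.28, and 12 of 17 p53 targets rose, with a median of 0.42, CDKN1A among them (0.83). Of 9 mesenchymal markers 5 fell and 1 rose (COL1A1 -1.07, RUNX2 -0.99, CD44 0.30), and their summed intensity was 16753 to 16838 with the control and 13747 to 14571 with the hairpin. The summed epithelial markers were 5128 to 5699 and 5047 to 5222, with CDH1 higher by 0.53, the neural markers 230 to 298 and 195 to 204, and the blood cell markers 93 to 108 and 129 to 159, with CD3D higher by 1.24 and PTPRC and HBB below the detection filter. The gene lists were chosen with earlier results of these data known. The part of these lists and markers in the changes of the members was not tested.

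Hairpin b was run with 4 pairs of groups in the first experiment. Averaged over those comparisons (12 arrays against 12), 1 of 51 members rose and 2 fell. That share was close to the 5.66% of all 12419 genes that were called. The median member change was 0.02. The 48 members not called lay between -0.27 for DSCC1 and 0.16 for PRIM1. The members called were RFC5, FEN1 and DUT.

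RFC5, a subunit of the clamp loader replication factor C, fell by 2.13-fold with hairpin b. At 0 Gy its log2 intensities were 10.36, 10.03 and 10.36 with the control and 9.05, 9.10 and 9.11 with hairpin b, and at 5 Gy 9.71, 10.03 and 10.61 against 8.43, 8.95 and 9.52. Together with the p53 shRNA they were 9.42, 9.23 and 9.33 at 0 Gy and 9.50, 9.33 and 9.49 at 5 Gy, against 10.28, 10.67 and 10.27 and 10.27, 10.51 and 10.48 with the p53 shRNA alone. All 12 arrays with hairpin b lay below all 12 without it. The averaged log2 change was -1.09 ± 0.11 (SE, adjusted p = 3.59e-07), and 8 of 8 pairs of arrays with the same number and chip had the same sign. RFC5 rests on 1 probe, so no other probe checks it.

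Each of the 4 single comparisons called RFC5 lower. Its change was -1.16 in cells with no p53 shRNA at 0 Gy (adjusted p = 0.00861, where 0.443% of all genes were called) and -1.15 at 5 Gy (adjusted p = 0.00661, with 1.16% called). In cells with the p53 shRNA it was -1.08 at 0 Gy (adjusted p = 0.0157, with 0.507% called) and -0.98 at 5 Gy (adjusted p = 0.0279, with 0.709% called). At 0 Gy without the p53 shRNA the call was lost without control replicate 1 or 3 or hairpin replicate 1 (adjusted p up to 0.0574). With the p53 shRNA it was lost at 0 Gy without any array but replicate 3 of the p53 shRNA alone (up to 0.0963), and at 5 Gy without any of the 6 arrays (0.0652 to 0.144); at 5 Gy without the p53 shRNA it was lost when only the 6 arrays compared were fitted (0.336).

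FEN1 fell by 1.29-fold. It had 12.07, 12.32 and 12.18 with the control and 11.63, 11.78 and 11.79 with hairpin b at 0 Gy, and 12.21, 12.08 and 12.05 against 11.73, 11.77 and 11.72 at 5 Gy. With the p53 shRNA alone it had 12.27, 12.23 and 12.27 at 0 Gy and 12.43, 12.35 and 12.34 at 5 Gy, and with both shRNAs 11.98, 12.03 and 11.92, and 11.93, 12.10 and 11.99. In each of the 4 comparisons the hairpin arrays lay below the arrays without it. The averaged change was -0.37 ± 0.05 (adjusted p = 1.53e-05), and a dimmer FEN1 probe had -0.31. Alone, the comparison at 0 Gy without the p53 shRNA called FEN1 (-0.46, adjusted p = 0.0243), and lost it without any of its 6 arrays but control replicate 1 (up to 0.194). At 5 Gy it was -0.38 without the p53 shRNA (adjusted p = 0.0574, and 0.0281 with the replicate number as a block) and -0.37 with it (0.0946, and 0.0403 with the block), and other settings called it too.

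DUT moved the other way. It had 8.61, 8.48 and 8.67 with the control and 8.81, 8.96 and 9.10 with hairpin b at 0 Gy, and 8.77, 8.60 and 8.80 against 8.68, 9.09 and 9.28 at 5 Gy. With the p53 shRNA alone it had 8.56, 8.80 and 8.89 at 0 Gy and 8.75, 8.72 and 8.96 at 5 Gy, and with both 8.87, 9.01 and 9.01, and 8.93, 9.13 and 9.35. The groups did not overlap at 0 Gy without the p53 shRNA and overlapped in the other comparisons, and 7 of 8 chip pairs were higher with the hairpin. The averaged change was 0.30 ± 0.07 (adjusted p = 0.0116), but the other probes of DUT had 0.17 and 0.09, and the mean of the probes was not called (0.19, adjusted p = 0.0785).

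The 120 bases before the start of RFC5 and FEN1, the members that fell with hairpin b, are shown on the same build; no E2F word is in either.
RFC5 (chr12:118016583-118016702, plus strand): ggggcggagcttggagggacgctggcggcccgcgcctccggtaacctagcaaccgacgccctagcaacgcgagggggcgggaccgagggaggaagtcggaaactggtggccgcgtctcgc
FEN1 (chr11:61792791-61792910, plus strand): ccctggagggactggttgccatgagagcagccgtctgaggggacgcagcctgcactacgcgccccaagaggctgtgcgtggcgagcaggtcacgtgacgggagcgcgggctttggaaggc
Of 49 other replication and G1/S genes E2F5 rose (0.39) and DBF4, the activator of the kinase CDC7, fell by 0.34, and 0 of 30 G2/M genes were called (4 at an unadjusted p under 0.05). Of 17 p53 targets 1 rose, with a median of 0.04. Of 9 mesenchymal markers 3 fell (COL5A1 -0.37, CD44 -0.35, S100A4 -0.34), with summed intensities of 20305 to 26502 with and 22768 to 28060 without hairpin b, and their part in the changes of the members was not tested.

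**Figure D2:**
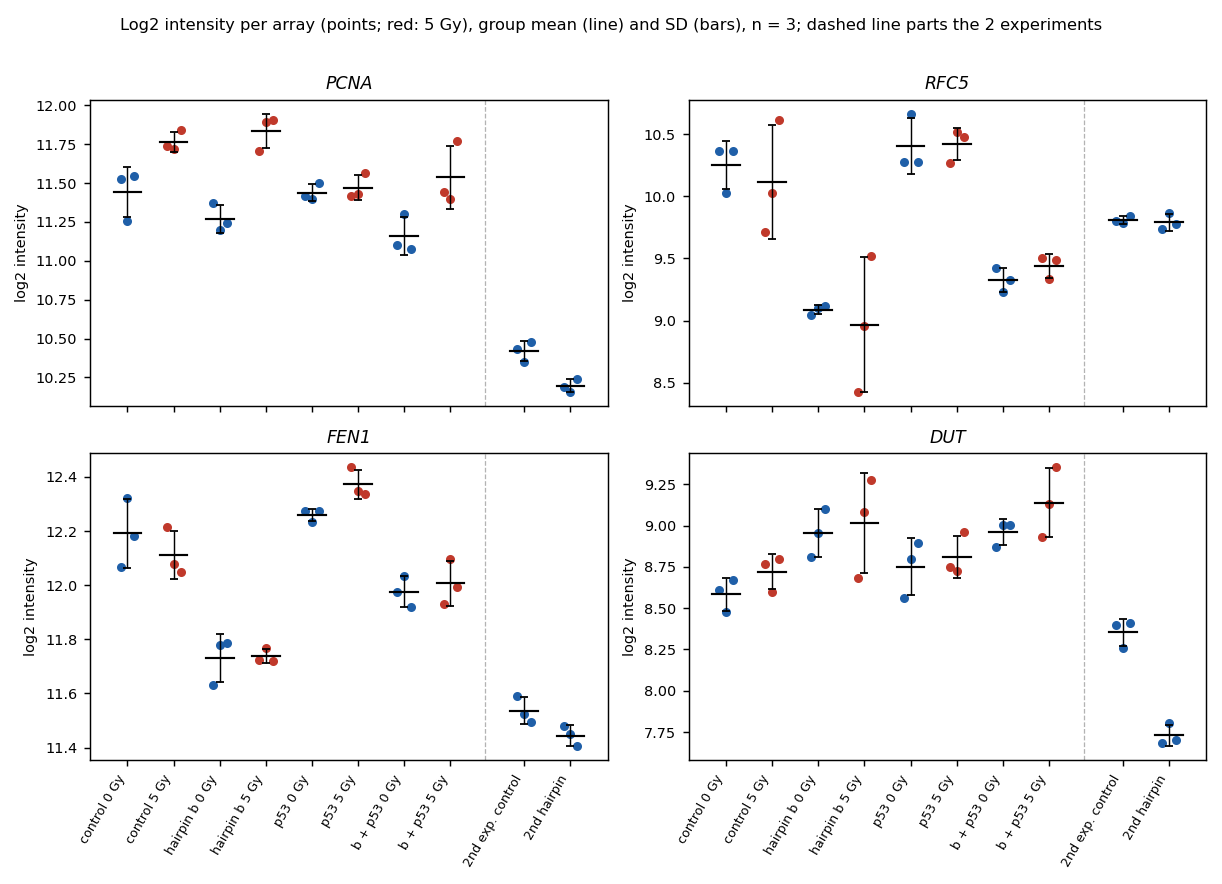
Log2 intensity of PCNA, RFC5, FEN1 and DUT on each array (points, red at 5 Gy) in the 10 groups, with the group mean (line) and SD (bars, n = 3); the experiments, parted by the dashed line, were normalized separately. For RFC5 the arrays with hairpin b lie below all others of the first experiment, at 8.43 to 9.52, while the second hairpin (9.74 to 9.87) overlaps its control (9.78 to 9.84); DUT is lower with the second hairpin (7.68 to 7.80) than with its control (8.26 to 8.41), and its probe differs between the experiments.

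The changes with hairpin b at 0 Gy and with the second hairpin were set against each other in 1 fit of all 30 arrays, each against its own control and with each gene read by the same probe. This test was added after the data had been seen. Of 12667 genes 338 differed (2.67%), and of the 52 members 2, DUT and RFC5. DUT was 0.37 with hairpin b and -0.61 with the second hairpin, a difference of 0.98 ± 0.19 (SE, adjusted p = 0.00296). RFC5 was -1.16 and -0.02, a difference of -1.14 ± 0.27 (adjusted p = 0.0221), which was lost without replicate 1 or 3 of the control of the first experiment, replicate 1 of the control of the second, or replicate 2 of the second hairpin (adjusted p up to 0.0627). E2F2 (0.66, adjusted p = 0.0795), FEN1 (-0.37, adjusted p = 0.117) and MCM7 (0.41, adjusted p = 0.138) came next and were not called. The DUT difference rests on 1 of its 3 probes. With each experiment fitted alone, its other probes changed by 0.12 and -0.12 with hairpin b at 0 Gy. With the second hairpin they changed by -0.63 and -0.14, in the same order, and the difference was not tested for them. The experiment and the hairpin cannot be told apart here, since each hairpin was run in 1 experiment. The fall of MDC1 also differed in size, with each experiment normalized alone. Its mean log2 intensity went from 9.01 to 7.59 with hairpin b at 0 Gy, and from 8.65 to 6.24 with the second hairpin. The part of that in these differences was not tested.

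**Figure D3:**
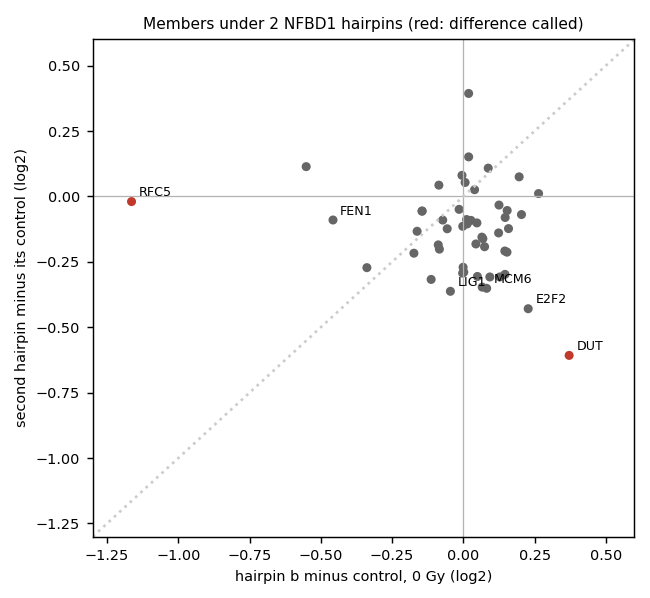
Each point is a member, with its log2 change by hairpin b at 0 Gy on the x axis and by the second hairpin on the y axis; the dotted line marks equal changes. The red points RFC5 (-1.16, -0.02) and DUT (0.37, -0.61) are the members whose changes differed between the hairpins.

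In the main fit PCNA was the member called after irradiation. Other processing settings, given below, also called GINS4, and with the mean of the probes no member was called. Averaged over the 4 shRNAs (12 arrays at 5 Gy, 12 at 0 Gy), 1.8% of all genes were called and 1 of 51 members, with a median member change of 0.01 and of 0.00 over all genes. The 50 others lay between -0.26 for E2F8 and 0.18 for GINS4, and the 95% interval was within 0.5 of 0 for 49 of them. In the same comparison 24 of 30 G2/M genes fell, with a median of -0.48, and 16 of 17 p53 targets rose, with a median of 0.63. These lists were chosen with earlier results of these data known. Of 49 other replication and G1/S genes 1 fell, cyclin A2 (CCNA2, -0.65, adjusted p = 6.04e-08), and 1 rose, RRM2B (0.49, adjusted p = 0.00138).

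PCNA serves replication and repair as the sliding clamp and is a known p53 target. With the control it had 11.53, 11.26 and 11.55 at 0 Gy and 11.74, 11.72 and 11.84 at 5 Gy, and with hairpin b 11.37, 11.20 and 11.24, and 11.71, 11.89 and 11.91. With the p53 shRNA it had 11.42, 11.39 and 11.50, and 11.42, 11.43 and 11.56, and with both shRNAs 11.10, 11.30 and 11.08, and 11.44, 11.40 and 11.77. In each group but the p53 shRNA alone the 5 Gy arrays lay above the 0 Gy arrays. The averaged change was 0.33 ± 0.06 (SE, 1.25-fold, adjusted p = 0.00158), with 12 of 12 pairs of the same number and chip higher at 5 Gy, by 0.00106 to 0.697. When the mean of its probes was taken, with a pair of dim probes whose changes were -0.03 and 0.09, PCNA was not called (0.13, adjusted p = 0.401).

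By shRNA, PCNA changed by 0.32 with the control (adjusted p = 0.699), 0.57 ± 0.12 with hairpin b (adjusted p = 0.0137), 0.03 with the p53 shRNA and 0.38 with both (adjusted p = 0.548). Hairpin b was the comparison that called a member, with 0.757% of all genes called. No member was called with the control (0.588% of all genes), the p53 shRNA (0.25%) or both (0.201%). At an unadjusted p under 0.05, a looser threshold not comparable with those shares, these had 2, 1 and 2 members. The call with hairpin b was lost without replicate 2 or 3 of either of its groups (adjusted p up to 0.0991), with only the 6 arrays compared (0.361) and with the mean of the probes (0.323). The effect of irradiation on PCNA was not shown to differ with the p53 shRNA (difference -0.24, adjusted p = 0.998) or with hairpin b (0.29, adjusted p = 0.815). No member was called in these interactions or in that of both shRNAs, where 0.0161%, 0% and 0% of all genes were called. At an unadjusted p under 0.05, a looser threshold not comparable with those shares, there were 2, 5 and 0 members.

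GINS4 came next after PCNA, with 0.18 in the average (adjusted p = 0.0692) and 11 of 12 pairs higher. It was called in the average with the replicate number (adjusted p = 0.0324) or the chip (0.0396) as a block, with no background correction (0.0357), no detection filter (0.0209), detection on every array (0.0429) and the authors' processed values (0.00553). With hairpin b it changed by 0.37 (adjusted p = 0.0992 without and 0.0414 with the replicate block). POLA2, the regulatory subunit of DNA polymerase alpha, was higher at 5 Gy in 12 of 12 pairs, with an average of 0.18 (adjusted p = 0.313).

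**Figure D4:**
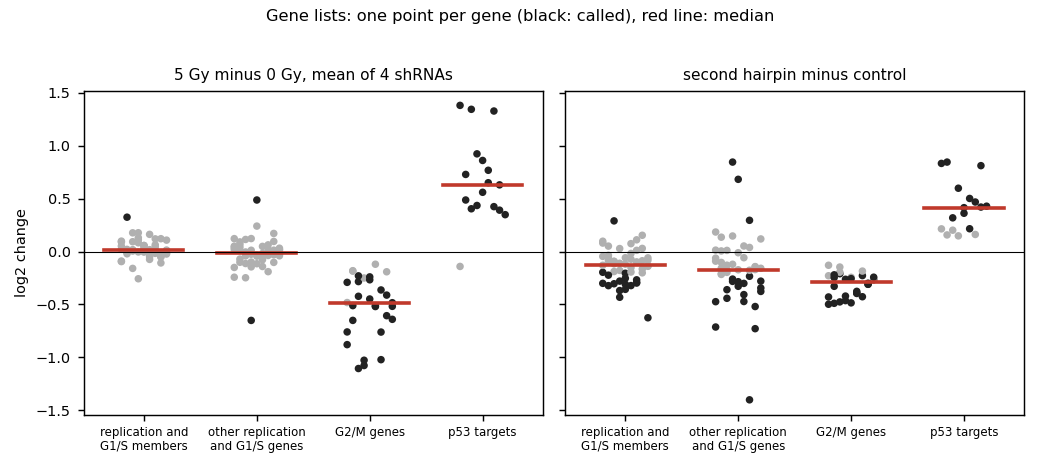
Each point is a gene and its log2 change, for the members, other replication and G1/S genes, G2/M genes and p53 targets, after irradiation (average) and with the second hairpin; black points were called and red lines are medians. Medians after irradiation are 0.01 for the members, -0.48 for G2/M genes and 0.63 for p53 targets, and with the second hairpin -0.12, -0.28 and 0.42. The lists were chosen with earlier results of these data known.

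With no block in the fit, the p53 shRNA raised 4 of 51 members and lowered none, averaged over 4 comparisons. In that fit 3.48% of all genes were called (1.12% higher). The members raised were CDC25A, FEN1, GINS3 and CDT1. With the replicate number as a block more members were called, PCNA among them as lower. The median member change was 0.09, against 0.01 over all genes, and 39 of 51 members were above 0 (76.5%, against 52.2% of all genes). Of 49 other replication and G1/S genes RRM2B alone was called (-0.95, adjusted p = 2.32e-07); of 30 G2/M genes 25 were above 0 with a median of 0.08, and 16 of 17 p53 targets fell, with a median of -0.75. The averages for irradiation, hairpin b and the p53 shRNA use the same 24 arrays.

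CDC25A, the phosphatase that activates CDK2 and CDK1, rose by 1.24-fold. At 5 Gy it had 8.51, 8.56 and 8.59 with the control and 9.24, 8.87 and 9.20 with the p53 shRNA, groups that did not overlap. With hairpin b at 5 Gy it had 8.67, 8.79 and 8.93, and with both shRNAs 9.17, 9.14 and 9.17, which also did not overlap. At 0 Gy it had 8.80, 8.78 and 8.90 with the control and 8.92, 9.02 and 9.06 with the p53 shRNA, which did not overlap by a small margin. In cells with hairpin b at 0 Gy it had 8.72, 8.98 and 8.81 without and 9.06, 8.65 and 9.18 with the p53 shRNA, and the groups overlapped. The averaged change was 0.30 ± 0.06 (SE, adjusted p = 0.0066), with the same change in its other probe. It was higher with the p53 shRNA in 8 of 8 pairs of arrays on the same chip, of which 4 join arrays of the same replicate number and 4 of different numbers; this holds for all chip pairs of the p53 shRNA. At 5 Gy without hairpin b CDC25A was called alone among the members (0.55 ± 0.13, adjusted p = 0.0464, with 0.701% of all genes called), and lost the call without any of the 6 arrays but replicate 2 of the p53 shRNA (up to 0.273), with only those arrays (0.239) and with the mean of its probes (0.0588). The effect of the p53 shRNA on CDC25A was 0.31 larger after irradiation than before, which was not called (adjusted p = 0.998).

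FEN1, whose levels are given above, rose by 0.21 ± 0.05 in the average (adjusted p = 0.0113), with 8 of 8 chip pairs higher by 0.05 to 0.30. GINS3, a GINS subunit, had 9.24 to 9.32 on the 6 arrays with the control and 9.41 to 9.74 on the 6 with the p53 shRNA, which did not overlap. With hairpin b it had 9.03 to 9.44 and with both shRNAs 9.27 to 9.64, which did. Its averaged change was 0.23 ± 0.06 (adjusted p = 0.0213), with 6 of 8 chip pairs higher. CDT1, the licensing factor that loads the MCM ring, had 10.49, 10.47 and 10.37 with the control and 10.82, 10.93 and 11.15 with the p53 shRNA at 5 Gy, and overlapped at 0 Gy (10.21, 10.73 and 10.80 against 10.78, 10.40 and 10.86). Its averaged change of 0.30 ± 0.08 was close to the threshold (adjusted p = 0.0489), and the call was lost without any 1 of 20 of the 24 arrays (up to 0.104). It was also lost with the chip as a block (0.25, adjusted p = 0.0716) and with no detection filter.

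With the replicate number as a block, 7 members were called in this average. The block added POLD3, a subunit of DNA polymerase delta, at 0.32 (adjusted p = 0.0158), CCNE1, cyclin E1, at 0.21 (0.0135) and PCNA at -0.18 (0.046). PCNA was lower with the p53 shRNA in 8 of 8 chip pairs, by 0.10 to 0.45 on the log2 scale, and POLD3 higher in 8 of 8. RPA3, which the block did not add, was also lower in 8 of 8. In the single comparisons of the p53 shRNA other than that at 5 Gy without hairpin b, no member was called. Of all genes 0.33% were called at 0 Gy without hairpin b, 0.153% at 0 Gy with it and 0.395% at 5 Gy with it. At an unadjusted p under 0.05, a looser threshold not comparable with those shares, there were 0, 1 and 7 members. FEN1 (0.24, adjusted p = 0.951) had the smallest p at 0 Gy with hairpin b, and GINS3 (0.32, adjusted p = 0.384) and POLD3 (0.56, adjusted p = 0.386) at 5 Gy.

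**Figure D5:**
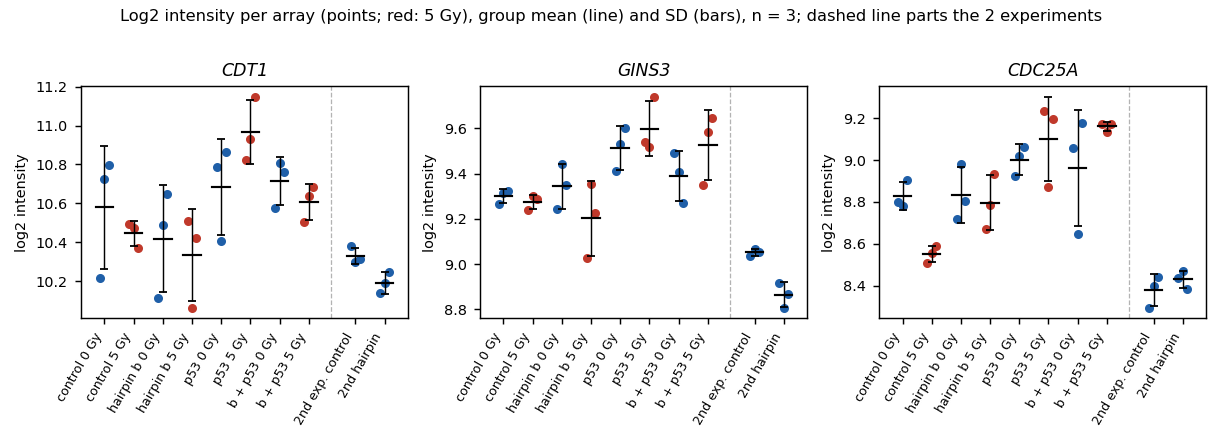
Log2 intensity of CDT1, GINS3 and CDC25A on each array (points, red at 5 Gy) in the 10 groups, with the group mean (line) and SD (bars, n = 3); the experiments, parted by the dashed line, were normalized separately. At 5 Gy the p53 shRNA arrays lie above the control arrays for all 3 genes, for CDC25A at 8.87 to 9.24 against 8.51 to 8.59.

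Across the 8 groups of the first experiment the group means of a member spanned from 0.15 for MCM7 to 1.45 for RFC5 on the log2 scale, and the pooled SD between replicates ran from 0.076 for FEN1 to 0.365 for DSCC1, a subunit of the clamp loader that acts in sister chromatid cohesion. E2F8 was dim, with detection on 14 of 24 arrays.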

How the data were processed

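The authors deposited, per the file headers, probe intensity (mean bead signal, not normalized) and a detection p-value for 30 arrays; 60 further columns were not used. They also deposited a matrix of values on a log2-like scale, with the method not given in the sources used here, which ranked probes as the intensity did (Spearman 1, median 6.95 on every array); it served as an alternative. Of 48802 probes, 27577 had 1 gene symbol, 13 several and 21212 none. For each experiment neqc of limma 3.58.1 (R 4.3.3, offset 16) corrected the background, normalized by quantiles and gave log2 values. A probe was kept where its detection p-value was under 0.01 on 3 or more arrays of the experiment, and the brightest kept probe stood for its gene. Counted over all 30 arrays and not by experiment, 78 of 82 member probes passed, and 20 members had several. Group means were fitted over all groups (16 and 4 residual degrees of freedom), and genes were called at a Benjamini-Hochberg adjusted p under 0.05 over all 12419 and 11040 genes. There were 19 comparisons: 13 of 2 groups, 3 averages and 3 interactions. Averages and single comparisons share arrays.

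Members and gene lists were chosen with earlier results of these data known. The members described are those called in a comparison, or those with the smallest p. Same-numbered arrays correlated at over 0.1 in every pair in 9 of the 13 comparisons of 2 groups; the exceptions were irradiation with the control (lowest 0.0915), the p53 shRNA without hairpin b at 0 Gy (-0.14) and 5 Gy (0.0890), and the second hairpin (-0.06). In the first experiment arrays of 1 number and shRNA at both doses shared a chip; 4 chips held 6 arrays each, and the second experiment lay on 1 chip. Promoters came from RefSeq (GRCh38.p14); positions are of that table, and no build is named for the arrays in the sources used here. The share of all genes whose arrays did not overlap is given for the second hairpin only. Non-overlap in the first experiment has no such share beside it. The number of arrays limits the precision.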

Additional observations from a re-analysis of the deposited data

Results flagged for a closer look

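The changes by hairpin b at 0 Gy and by the second hairpin differed for 2 of 52 members by a test of the difference itself, in a fit of all 30 arrays chosen after seeing the data. For DUT the change with hairpin b was higher by 0.98 on the log2 scale (adjusted p = 0.00296, limma), and for RFC5 it was lower, with a difference of -1.14 (adjusted p = 0.0221). In that fit 338 of 12667 genes differed and 1566 had an unadjusted p under 0.05. DUT was read there by 1 of its 3 probes. The dimmest of them changed by -0.12 with hairpin b at 0 Gy and by -0.14 with the second hairpin, with each experiment fitted alone. Each hairpin was run in 1 experiment, so hairpin and experiment cannot be told apart.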

How the results depend on the processing

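No direction of a member call reversed, and 16 of 33 member calls in 19 comparisons held under every alternative. Counts of called members moved as follows. With the replicate number as a block, 2 were called for irradiation with hairpin b (1 without), 2 for hairpin b at 5 Gy without (1) and 2 with the p53 shRNA (1), 2 for irradiation on average (1) and 7 for the p53 shRNA on average (4); for the second hairpin the block took MCM2, PCNA, RRM1 and E2F8, normalization with the first experiment (added after seeing the data) these and GINS4, and the mean of the probes PCNA. The member gained was GINS4 for irradiation and FEN1 for hairpin b at 5 Gy. For the second hairpin the processing settings called 13 to 22 members (18), so members were gained as well as lost. With the chip as a block there were 2 for irradiation with hairpin b, 2 for hairpin b at 5 Gy and 2 for irradiation on average. With only the arrays compared there were 0 for irradiation with hairpin b, 1 for hairpin b at 0 Gy (2), 0 at 5 Gy, and 0 for the p53 shRNA at 5 Gy (1). With no background correction there were 2 for hairpin b at 5 Gy without and with the p53 shRNA and 2 for irradiation on average. With no detection filter there were 2 for those and for irradiation with hairpin b; with detection on every array 2 for hairpin b at 5 Gy and irradiation on average. With the mean of the probes there were 0 for irradiation on average, irradiation with hairpin b and the p53 shRNA at 5 Gy. With the authors' processed values there were 2 for irradiation with hairpin b, irradiation on average and hairpin b at 5 Gy and with the p53 shRNA at 0 Gy (1) and 5 Gy, 5 for hairpin b on average (3) and 5 for the difference between the hairpins (2). Leaving out 1 array at a time gave 0 to 2 for irradiation with hairpin b, 0 to 1 for hairpin b at 0 Gy, with and without the p53 shRNA, 1 at 5 Gy without it and 0 with it, 0 to 1 for the p53 shRNA at 5 Gy, 1 to 2 for irradiation on average, 3 to 6 for the p53 shRNA on average, 1 to 3 for the difference, and 11 to 15 for the second hairpin (18), the 11 without control replicate 3 or hairpin replicate 1. Over all genes the replicate block took the calls from 224 to 384 for irradiation on average, 703 to 1374 for hairpin b and 432 to 995 for the p53 shRNA. The causes were not tested. Of the arrays in the first experiment, 24 of 24 correlated best with their own number, and in the second 2 of 6.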
